A study of Mus musculus with 4 samples.

Results

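The 10 genes described here encode the cytokine TNF (Tnf), the 5 subunits of the transcription factor NF-kappa-B (Nfkb1, Nfkb2, Rel, Rela and Relb) and 4 proteins that act back on this pathway (Nfkbia, Nfkbiz, Tnfaip3 and Zfp36). They were chosen by symbol and found by Ensembl identifier in GENCODE M21, and all 10 were among the 54146 genes of the count table and among the 14688 genes with enough counts for a test. The counts come from tumor-associated macrophages (TAMs), sorted as live CD11b+ F4/80+ cells from the CD45+ fraction of MCA205 tumors, a mouse fibrosarcoma grown from a cell line. All mice were female C57BL/6 mice of 8 to 16 weeks that had been given 1000000 MCA205 cells under the skin of the flank. The control group (labelled vehicle, 2 libraries) is compared with the propranolol group (2 libraries), whose drinking water held propranolol, a blocker of beta-adrenergic receptors, at 0.5 g/L from the day of inoculation. Nothing in the labels says how many mice went into a library, and p-values then measure only the spread between these libraries.

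TNF binds its receptors on the cell surface and starts a signal through the IKK kinases, which mark the inhibitor IkappaB-alpha for destruction. NF-kappa-B dimers then enter the nucleus and switch on inflammatory genes, Tnf included, together with the genes of their own inhibitors, so that the signal is shut off again. In macrophages this loop follows stimuli such as bacterial products, cytokines and dying cells, and RNA-binding proteins that act on AU-rich elements set how long the Tnf mRNA lasts.

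Stretches of promoters and 3′ UTRs that match consensus sequences for NF-kappa-B and for the Zfp36 protein are shown first. RefSeq promoters of GRCm38.p6, from 250 bases before to 50 bases after a start site, were given for 7 of the 10 genes (not for Nfkbiz, Nfkb1 and Relb), and both strands were searched for the kappa-B consensus of 10 bases, to which NF-kappa-B binds. Of these 7 genes, 4 held a match (Nfkbia, Tnfaip3, Nfkb2 and Rel), against 9.55% of all 27025 genes with such a promoter. In each window the match is in capitals, overlapping matches run together, and 10 bases on either side are in lower case, all written along the strand of the gene and taken at the most upstream start site. Nfkbia (chr12:55492657-55492686, minus strand) has its match 29 to 20 bases before the start site, Rel (chr11:23771041-23771071, minus strand) 92 to 82 bases before it, Nfkb2 (chr19:46304688-46304718, plus strand) 39 to 29 bases before it and Tnfaip3 (chr10:19015516-19015545, minus strand) 125 to 116 bases before it.
Nfkbia: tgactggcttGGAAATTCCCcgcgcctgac
Rel: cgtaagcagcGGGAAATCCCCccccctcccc
Nfkb2: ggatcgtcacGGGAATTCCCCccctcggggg
Tnfaip3: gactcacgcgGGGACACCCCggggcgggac
Tnfaip3 has another match 12 to 3 bases before the start site and Nfkb2 another 11 to 2 bases before it, and further start sites of Nfkb2 hold matches as well. The window of Tnf had none of these letters, which says nothing about binding elsewhere in the gene. A match is a description of the letters and not of an occupied site.

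The AU-rich nonamer TTATTTATT, of the kind to which the Zfp36 protein binds, occurred 5 times (overlaps counted) in the 3′ UTR of Tnf, which is 764 bases long. It was found 5 or more times in 11 of the 12591 tested genes with an annotated 3′ UTR (0.0874%), and at least once in 988 of them (7.85%). The window with the most copies lies at chr17:35199681-35199710 of GRCm38 on the minus strand and holds 4 overlapping copies, shown in capitals.
Tnf: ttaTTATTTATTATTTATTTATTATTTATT
Nfkbia, Tnfaip3, Rel and Zfp36 each had 1 copy in the 3′ UTR, and the other 5 genes had none.

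The counts summed to 13798249 and 23018142 in control replicates 1 and 2 and to 39818103 and 16424081 in propranolol replicates 1 and 2. The lowest count of any of the 10 genes in a library was 568 (Tnf in control replicate 1). Levels within a gene are given as CPM, counts relative to the library size after TMM normalization. Differences were tested by edgeR's quasi-likelihood method with Benjamini-Hochberg adjustment over all 14688 tested genes, and SE stands for the standard error of a log2 fold change. Genes count as called, and as having risen or fallen, where the adjusted p was under 0.05 and the fold change beyond 1.5-fold. The macrophage markers of the sort were high in every library, with Adgre1 (F4/80) between 975 and 1151 CPM and Itgam (CD11b) between 313 and 369 CPM, while Ptprc (CD45) had 754 and 780 CPM in the control and 479 and 442 CPM in the propranolol libraries. Control replicate 1 stood apart in transcripts of fibroblasts and of the tumor cells. Its Col3a1 level was 1294 CPM, against 423 CPM in control replicate 2 and 212 and 225 CPM in the propranolol libraries. In bulk libraries such as these, fewer cells of a type and less RNA per cell cannot be told apart.

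Across the 10 genes, Nfkbia was higher and Rel lower after propranolol, and the other 8 genes were not called. These 2 of 10 genes compare with 27.8% of all tested genes that were called, 12.2% higher and 15.6% lower, so that the share of called genes was no larger here than in the whole table. By adjusted p alone, 4 genes were higher (Nfkbia, Rela, Relb and Nfkb2) and 1 lower (Rel), against 21.8% of all tested genes higher and 20.4% lower. With the replicate number as a block, Tnfaip3, Nfkb1 and Zfp36 also passed, giving 7 higher and 1 lower against 24.9% and 23.4% of all tested genes. Both propranolol libraries lay above both control libraries in 7 genes and below them in 1, against 35.8% and 36.9% of all tested genes, and the groups overlapped for Tnf and Nfkbiz. The median log2 fold change of the 10 genes was 0.30, beside -0.019 over all tested genes, and after a correction for GC content (described further on) it was 0.089 beside 0.087.

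**Figure D1:**
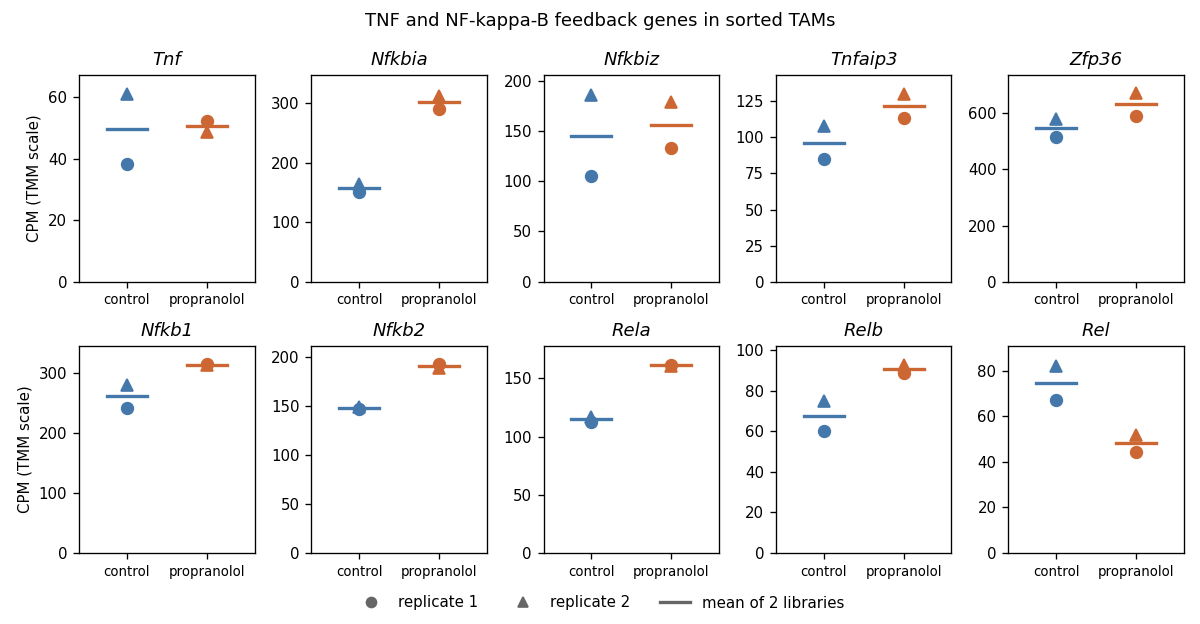
CPM (TMM scale) of each of the 10 genes in the 2 control and 2 propranolol libraries, with circles for replicate 1, triangles for replicate 2 and a line at the mean of each group. The groups are separate for 8 genes and overlap for Tnf and Nfkbiz, and Rel is the gene in which the propranolol libraries lie below the control libraries.

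Nfkbia (ENSMUSG00000021025.8, chromosome 12, 55489410 to 55492647 of GRCm38) encodes IkappaB-alpha, which holds NF-kappa-B dimers in the cytoplasm and is made anew as one of the earliest NF-kappa-B targets. It had 150.1 and 165 CPM in the control libraries and 290.0 and 313 CPM in the propranolol libraries. The replicates of each group were close, with a ratio of replicate 2 to replicate 1 of 1.10 in control and 1.08 after propranolol, and the groups were far apart. Nfkbia rose 1.91-fold, a log2 fold change of 0.93 (SE 0.10, edgeR adjusted p = 0.000169). Over 15 alternatives its log2 fold change stayed between 0.74 and 1.02, with a highest adjusted p of 0.000962, and it was called in 14 of them. The exception was the criterion of a log2 fold change beyond 1.5, which it does not reach.

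Tnf itself (ENSMUSG00000024401.14, chromosome 17, 35199381 to 35202007) had 38.3 and 60.9 CPM in the control libraries and 52.3 and 48.8 CPM in the propranolol libraries. Both propranolol libraries lay between the control libraries, which differed 1.59-fold from each other. The log2 fold change was 0.019 (SE 0.18, edgeR adjusted p = 0.943), so that a difference was not detectable beside the spread of the control libraries. Its sign was the opposite under 6 of the 15 alternatives, with a range from -0.21 to 0.42 and a lowest adjusted p of 0.0646.

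Nfkbiz (ENSMUSG00000035356.17, chromosome 16, 55811375 to 55838899) encodes IkappaB-zeta, a nuclear relative of the inhibitors that also helps to switch on a subset of NF-kappa-B targets. The control libraries had 105 and 186 CPM and the propranolol libraries 133 and 179 CPM. This gene had the widest spread between control libraries of the 10, at 1.77-fold, and the groups overlapped. The log2 fold change was 0.093 (SE 0.23, edgeR adjusted p = 0.774). It was 0.59 (edgeR adjusted p = 0.00208) and called higher without control replicate 2, and -0.20 (adjusted p = 0.361) without control replicate 1, so the result for Nfkbiz rests on which control library is used.

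Tnfaip3 (ENSMUSG00000019850.11, chromosome 10, 19000910 to 19015657) encodes A20, a ubiquitin-editing enzyme that switches off signaling from the TNF receptor. It had 85.1 and 108 CPM in the control libraries and 113 and 130.0 CPM in the propranolol libraries. The groups did not overlap, but the highest control library and the lowest propranolol library were close. The log2 fold change was 0.33 (SE 0.13, edgeR adjusted p = 0.0633), and Tnfaip3 was not called under any of the 15 alternatives.

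Zfp36 (ENSMUSG00000044786.6, chromosome 7, 28376784 to 28380253) encodes tristetraprolin, which binds AU-rich elements such as those of the Tnf 3′ UTR and speeds the decay of the mRNA. The control libraries had 516 and 581 CPM and the propranolol libraries 590.5 and 672 CPM. Control replicate 2 and propranolol replicate 1 were nearly level. The log2 fold change of 0.20 (SE 0.10, edgeR adjusted p = 0.144) did not pass. The exons of Zfp36 share 125 bases with the antisense gene Gm44710, and with counting for which no strand option is named the reads of both cannot be told apart there.

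Of the subunits, Rela (ENSMUSG00000024927.7, chromosome 19, 5637483 to 5648130) encodes p65, which carries a transactivation domain and pairs with p50 in the most common dimer. It had 113 and 117 CPM in the control libraries and 162 and 161 CPM in the propranolol libraries. The replicates were almost equal and the groups were separate. The change was 1.40-fold (log2 fold change 0.49, SE 0.10, edgeR adjusted p = 0.00269), past the threshold on p and under the one on size. Relb (ENSMUSG00000002983.17, chromosome 7, 19606217 to 19629438), whose protein acts in the slower, non-canonical branch, had 60.2 and 74.8 CPM in control and 88.5 and 92.6 CPM in propranolol libraries. The groups were separate, with the wider spread in the controls. Its log2 fold change of 0.42 (SE 0.12, edgeR adjusted p = 0.0201) was under 1.5-fold, and was 0.60 and called higher without control replicate 2.

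Nfkb2 (ENSMUSG00000025225.14, chromosome 19, 46304320 to 46312385) encodes the precursor p100, which acts as an inhibitor until it is cut to p52, the partner of RelB. It had 146 and 149 CPM in the control libraries and 192 and 188 CPM in the propranolol libraries. The groups were separate and the replicates close, with a log2 fold change of 0.37 (SE 0.09, edgeR adjusted p = 0.0105), which is 1.29-fold. Nfkb2 shares 299 exon bases with Psd and 531 with AC114539.1, both on the opposite strand. Nfkb1 (ENSMUSG00000028163.17, chromosome 3, 135584655 to 135691547), which encodes p105 and from it p50, had 242 and 281 CPM in control and 315 and 313 CPM in propranolol libraries. The propranolol libraries were level and above both controls. The log2 fold change was 0.26 (SE 0.10, edgeR adjusted p = 0.0614).

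Rel (ENSMUSG00000020275.9, chromosome 11, 23736847 to 23770970) encodes c-Rel, a transactivating subunit that is best known from lymphocytes and is also made by macrophages. It had 67.2 and 82.1 CPM in the control libraries and 44.6 and 52.0 CPM in the propranolol libraries. Both propranolol libraries lay below both control libraries, in contrast to Rela, Relb, Nfkb1 and Nfkb2. Rel fell to 0.64 of the control level, a log2 fold change of -0.64 (SE 0.13, edgeR adjusted p = 0.00394). The call was lost without control replicate 2 (log2 fold change -0.46), without propranolol replicate 1 (-0.52), with no filter on low counts (-0.56) and with either GC correction. In the same libraries, the summed level of 10 T cell markers was 272 and 317 CPM in control and 139 and 75.4 CPM after propranolol, and their part in the result was not tested.

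Fold changes in these libraries followed the GC content of the genes. When all tested genes were put into 10 bins by GC content, the median log2 fold change went from -0.94 in the lowest bin to 0.46 in the highest. Rel has a GC content of 42.5% and lies in a bin with a median of -0.59, close to its own value. Rela and Nfkb2 (59.4% each) lie in the highest bin, and Relb (56.8%) in one with a median of 0.47, so that these 3 subunits were also near the median of genes of like composition. Nfkbia (52.9%) was 0.67 above the median of its bin, Nfkb1 (44.9%) 0.60 and Tnfaip3 (47.1%) 0.50 above theirs, while Tnf (52.1%) was at -0.25 from the median of its bin.

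**Figure D2:**
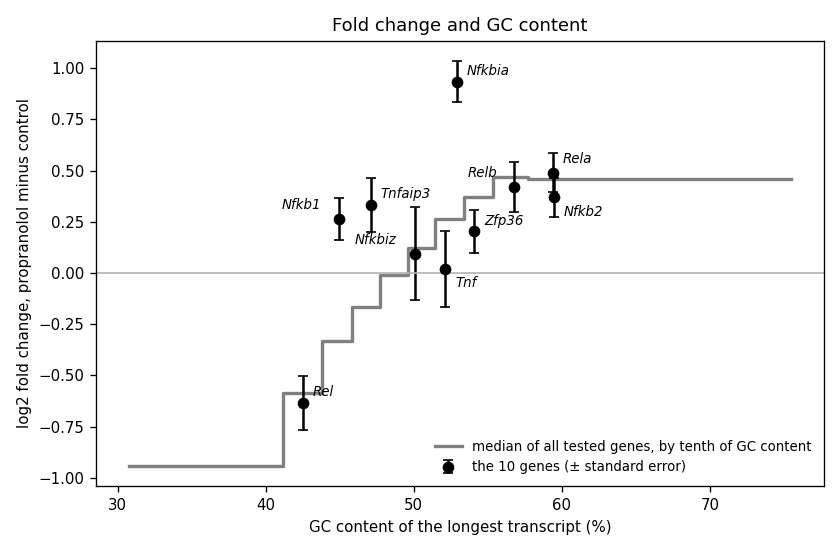
Log2 fold change (propranolol minus control, ± standard error) of the 10 genes against the GC content of the longest transcript, in percent, with the median of all tested genes in each of 10 bins of GC content as a grey step line. Nfkbia, Nfkb1 and Tnfaip3 stand above the line, and Rel, Rela, Relb and Nfkb2 lie close to it.

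When each library's trend along GC content was taken out and the test repeated, 2 of the 10 genes were called higher and 0 lower, against 7.64% and 4.99% of all tested genes. This correction moved the median of all tested genes by 0.11, from -0.019 to 0.087 on the log2 scale. Nfkbia had a corrected log2 fold change of 0.74 (edgeR adjusted p = 0.000962), which is 0.65 above that median. Nfkb1 had 0.65 (adjusted p = 0.00267), 0.57 above the median, and was called higher. The GC content used for Nfkb1 is that of its longest transcript, with 4149 bases, while its exons cover 12061 bases. Tnfaip3 had 0.56 (adjusted p = 0.0146), under 1.5-fold. The value of Rel was -0.033 (adjusted p = 0.897), and those of Rela, Relb and Nfkb2 were 0.16, 0.089 and 0.038, none of which passed. With the correction, Tnf (-0.13) and Zfp36 (-0.054) changed sign and did not pass. Neither the cause of the GC trend nor its part in the changes of single genes was tested, and the lower Rel and the higher Rela, Relb and Nfkb2 cannot be told apart from it in these data.

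**Figure D3:**
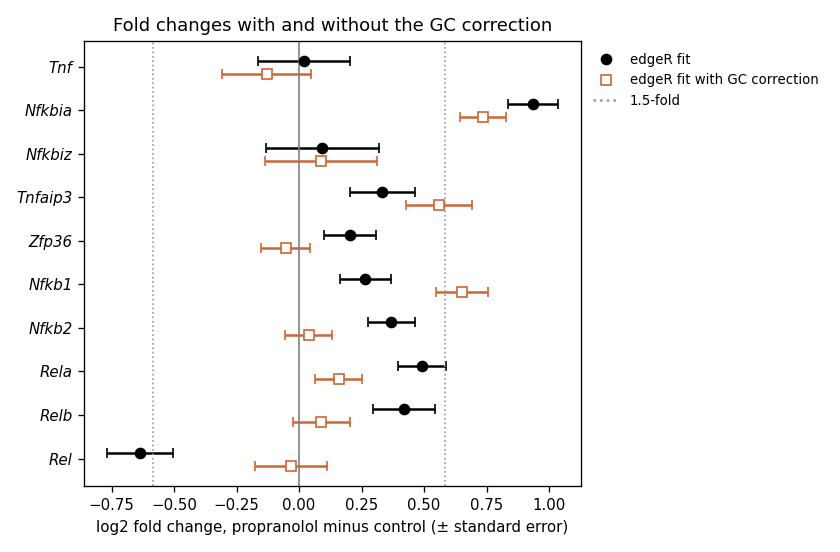
Log2 fold change (propranolol minus control, ± standard error) of the 10 genes in the edgeR fit (filled circles) and in the fit with the GC correction (open squares), with dotted lines at 1.5-fold. Nfkbia lies beyond 1.5-fold in both fits, Rel only in the first and Nfkb1 only in the second.

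Levels of different genes were compared as TPM, which divides by the length of all exons of a gene. In control TAMs the most abundant mRNA of the 10 was Zfp36, with 525 ± 54.4 TPM (SD, n = 2 libraries), followed by Nfkbia with 325 ± 28.3 TPM. Rela had 124 ± 5.79 TPM, Nfkb2 107 ± 3.43, Tnf 101 ± 34.5, Nfkbiz 96.5 ± 39.9, Nfkb1 72.0 ± 8.99, Tnfaip3 44.4 ± 8.22 and Rel 33.2 ± 5.38 TPM (SD, n = 2 libraries each). Relb, with 50.7 and 64.9 TPM in the control libraries, lay between Nfkb1 and Tnfaip3. The libraries overlapped between the neighbours Nfkb2 and Tnf, Tnf and Nfkbiz, and Nfkbiz and Nfkb1 in this order. After propranolol, Nfkbia had 527 ± 43.0 TPM and Zfp36 513 ± 61.4 TPM (SD, n = 2 libraries each), which overlapped. With the length of the longest transcript they did not overlap, at 390.1 and 439 TPM for Nfkbia and 449 and 534 TPM for Zfp36, so that the order of these genes after propranolol depends on the length used. Rel was the least abundant in both groups, with 18.2 ± 2.50 TPM after propranolol. The place of Nfkb1 also depended on it, since its exons cover 12061 bases and its longest transcript 4149 bases. With the transcript length it had 163 TPM in control and 164 TPM in propranolol libraries, which put it behind Zfp36 and Nfkbia in both groups.

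Control replicate 2 was above control replicate 1 in all 10 genes, by 1.02-fold (Nfkb2) to 1.77-fold (Nfkbiz), and Tnf and Nfkbiz differed most. Of all tested genes, 49.6% were higher in control replicate 2. Control replicate 1 is the library with the higher fibroblast and tumor transcripts, and their part in this difference was not tested. In the propranolol group, replicate 2 was above replicate 1 in 6 of the 10 genes, by up to 1.35-fold (Nfkbiz).

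Beyond the 10 genes, 104 genes of the pathway were followed in 6 lists, and 99 of them had enough counts for a test. Of these, 18 were called higher and 15 lower, and the median log2 fold change was 0.21, beside 12.2% and 15.6% of all tested genes and a median of -0.019. After the GC correction, 13 were higher and 4 lower, beside 7.64% and 4.99% of all tested genes, with a median of 0.20 beside 0.087. The lower count of 4 in 99 genes was near the share in the whole table.

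Among 9 genes for TNF-family ligands, their receptors and the TNF sheddase, 2 were higher and 1 lower (median 0.40), and after the GC correction 0 were higher and 2 lower (median 0.20). Rhbdf2, which encodes iRhom2 and brings the sheddase ADAM17 to the cell surface where TNF is cut free, rose from 144 and 208 to 312 and 351 CPM (log2 fold change 0.91, edgeR adjusted p = 0.00131). Its relative Rhbdf1 rose from 17.9 and 16.3 to 21.7 and 33.3 CPM (0.67). Neither was called after the correction, with values of 0.57 and 0.33, but with the replicate block added Rhbdf2 was called (0.59, edgeR adjusted p = 0.00111). The TNF receptors were less than 1.5-fold higher, with 208 and 204 CPM in control and 293 and 313 CPM in propranolol libraries for Tnfrsf1a (0.55, adjusted p = 0.00133) and 296 and 297 against 391 and 393 CPM for Tnfrsf1b (0.40, adjusted p = 0.00552). Lta, the lymphotoxin gene of lymphocytes, fell from 1.96 and 2.87 to 1.18 and 0.458 CPM (-1.47, adjusted p = 0.0455). This call was lost with the DESeq2 Wald test (adjusted p = 0.0807), without control replicate 2 (-1.16, adjusted p = 0.222) and without propranolol replicate 2 (-1.01, adjusted p = 0.194), and that of Rhbdf1 without propranolol replicate 2 (0.38, adjusted p = 0.126). Without propranolol replicate 1 the value of Lta was -2.39. After the GC correction, Lta (-1.77) and Ltb (-0.83) were the genes called lower. Calls also came under other settings. Ltb was called lower with the replicate block (-0.59), with upper-quartile factors (-0.61) and without propranolol replicate 1 (-0.96), and 4 genes of this list were higher without control replicate 1, among them Tnfrsf1a (0.62) and Ltbr (0.59). Ltb had 19.5 and 21.9 CPM in control and 17.3 and 10.6 CPM in propranolol libraries (-0.55, adjusted p = 0.0651). The T cell markers moved the same way as Lta, and their part in the result was not tested.

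Of 12 genes of the receptor complex and its ubiquitin ligases, 3 were higher and 1 lower (median 0.33), and 1 and 0 after the GC correction (median 0.27). The higher genes were Tradd, the adaptor of the TNF receptor (27.6 ± 2.69 to 46.3 ± 0.219 CPM, SD, n = 2 libraries each, here and below), and Rnf31 (63.6 ± 0.541 to 101 ± 10.4 CPM) and Rbck1 (137 ± 8.63 to 211 ± 18.3 CPM), which encode subunits of the linear ubiquitin ligase. Birc2, which encodes the ubiquitin ligase cIAP1, fell from 30.7 ± 1.02 to 17.6 ± 0.377 CPM. Rbck1 was under 1.5-fold without propranolol replicate 2 (0.56). With the correction none of these 4 was called, with values of 0.42 for Tradd, 0.56 for Rnf31, 0.30 for Rbck1 and -0.26 for Birc2. The gene called higher was then Traf5 (1.26), which was also called higher without control replicate 2 (0.76). It is named here, like other genes gained with the correction, once its value had been seen.

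The 11 genes of the IKK complex and its upstream kinases had 3 higher and 2 lower (median -0.12), and 0 and 1 after the GC correction, where the median had the opposite sign (0.24). Map3k14, the NIK kinase of the non-canonical branch, rose from 57.3 ± 2.50 to 89.9 ± 6.45 CPM, Tab1 from 37.8 ± 1.70 to 61.7 ± 6.77 CPM and Ikbke from 98.5 ± 29.0 to 149.7 ± 5.78 CPM. Chuk, which encodes IKK-alpha, fell from 48.0 ± 3.66 to 31.6 ± 1.18 CPM (log2 fold change -0.60) and Tab3 from 16.6 ± 2.14 to 6.57 ± 0.122 CPM (-1.33). With the correction Tab3 (-0.64) was still called, while Map3k14 (0.31), Tab1 (0.36) and Ikbke (0.58) were not. With the replicate block added to the correction, Ikbke was called higher (0.61, edgeR adjusted p = 0.00417). The corrected value of Chuk was 0.12, with the opposite sign, and its call was also lost without control replicate 2 (-0.51) and without propranolol replicate 2 (-0.54). The DESeq2 Wald test (-0.58) and no filter on low counts (-0.53) put Chuk under 1.5-fold as well. Ikbke was not called without control replicate 1 (0.39, adjusted p = 0.0552) or without propranolol replicate 1 (0.56), and had 0.96 without control replicate 2. Ikbkb, for IKK-beta, had a log2 fold change of 0.47 (edgeR adjusted p = 0.00583), under 1.5-fold, and Ikbkg, for the scaffold NEMO, one of -0.27 (adjusted p = 0.113).

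Of 15 other inhibitors and deubiquitinases, 2 were higher and 4 lower (median 0.18), and 2 and 0 after the GC correction (median 0.057). Tnip2, whose protein works with A20, rose from 49.8 ± 9.93 to 84.5 ± 11.7 CPM and Pdlim2, for a ligase that acts on p65, from 35.0 ± 0.900 to 57.9 ± 0.322 CPM. Cyld, a deubiquitinase, fell from 76.3 ± 1.34 to 45.3 ± 4.11 CPM, Tnip3 from 37.9 ± 1.92 to 18.8 ± 5.13 CPM, Rnf11 from 43.9 ± 8.33 to 23.8 ± 0.353 CPM and Otud7b from 16.6 ± 2.84 to 10.8 ± 0.161 CPM. With the GC correction, Tnip3 had the opposite sign (0.28) and the other 3 had values of -0.24, -0.29 and -0.50 that did not pass. Tnip2 (0.49) and Pdlim2 (0.40) were not called either, and the genes then called higher were Commd1 (0.65) and Tax1bp1 (0.59). Otud7b also lost its call without control replicate 1 (-0.38), with limma-voom (-0.58) and with no filter on low counts (-0.55). Of the relatives of IkappaB-alpha, Nfkbie had a log2 fold change of 0.022 (edgeR adjusted p = 0.884), Nfkbid 0.30 (adjusted p = 0.220) and Bcl3 0.56 (adjusted p = 0.00199, under 1.5-fold), and Tnip1 had 0.18 (adjusted p = 0.229). The differences between these genes and Nfkbia were not tested.

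Among 15 mRNA decay factors, 0 were higher and 3 lower (median -0.16), and 1 (Zc3h12c, 0.90) and 0 after the GC correction, where the median had the opposite sign (0.12). Rc3h2, for a Roquin protein, fell from 58.9 ± 2.57 to 23.9 ± 0.258 CPM, Cnot7 from 41.2 ± 0.531 to 21.5 ± 2.56 CPM and Tia1 from 27.1 ± 3.33 to 16.2 ± 0.580 CPM, and with the correction their values were -0.30, 0.15 and -0.018. The relatives of Zfp36 did not pass, with log2 fold changes of 0.32 (edgeR adjusted p = 0.0610) for Zfp36l1 and 0.11 (adjusted p = 0.443) for Zfp36l2. Zc3h12a, for the nuclease Regnase-1, had 0.31 (adjusted p = 0.0996).

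In a list of 42 NF-kappa-B target genes, 37 were tested, of which 8 were higher and 4 lower (median 0.33), and 9 and 1 after the GC correction (median 0.33). Icam1, the leukocyte adhesion molecule, rose from 163 ± 6.08 to 252 ± 5.76 CPM, Cxcl2, a neutrophil chemokine, from 64.1 ± 7.15 to 174 ± 28.6 CPM and Gadd45b, a survival gene, from 50.4 ± 3.61 to 95.2 ± 4.46 CPM. Log2 fold changes of the other higher genes were 1.02 for Cxcl1, 1.09 for Mmp9, 0.64 for Clec4e, 0.63 for Slc2a6 and 0.64 for Nos2. Mmp9 is also in the list of neutrophil markers, 5 of whose 8 tested genes were higher, and the part of neutrophils in these results was not tested. Vcam1 fell from 229 ± 27.6 to 128 ± 0.386 CPM, Cd83 from 139 ± 2.61 to 88.8 ± 5.54 CPM and Xiap from 104 ± 2.73 to 34.6 ± 5.04 CPM, and Cd69 had a log2 fold change of -0.88. With the GC correction, Icam1 (0.33), Gadd45b (0.58), Slc2a6 (0.30) and Nos2 (0.39) were no longer called, and Cxcl1, Cxcl2, Clec4e and Mmp9 were. Cd83 had a corrected value of -0.78 and was still called lower, while Vcam1 (0.0195), Xiap (-0.31) and Cd69 (0.50) did not pass. With upper-quartile factors, 4 target genes in place of 8 were higher, since Icam1 (0.57), Clec4e (0.58), Slc2a6 (0.57) and Nos2 (0.58) were then under 1.5-fold. Calls lost when 1 library was left out were those of Cxcl1 (0.91 without control replicate 2 and 0.90 without propranolol replicate 2), Clec4e (0.52 without control replicate 2 and 0.52 without propranolol replicate 1), Slc2a6 (0.57 without control replicate 1 and 0.51 without propranolol replicate 1) and Cd83 (-0.57 without control replicate 1 and -0.58 without propranolol replicate 1). Mmp9 had 1.65 without control replicate 1 and 0.70 without control replicate 2, called in both. Il1b had 293 ± 12.4 CPM in control and 389 ± 5.90 CPM in propranolol libraries (log2 fold change 0.41, edgeR adjusted p = 0.00586, under 1.5-fold), Ptgs2 a value of 0.48 (adjusted p = 0.00614, under 1.5-fold) and Sod2 one of 0.25 (adjusted p = 0.103). The GC-corrected values of these 3 genes were 0.69, 1.36 and 0.88, each called higher, as were Il1a (0.90) and Malt1 (0.97). Il6 had at most 0.220 CPM in a library and was not tested, nor were Il23a, Csf2, Csf3 and Ccl20.

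**Figure D4:**
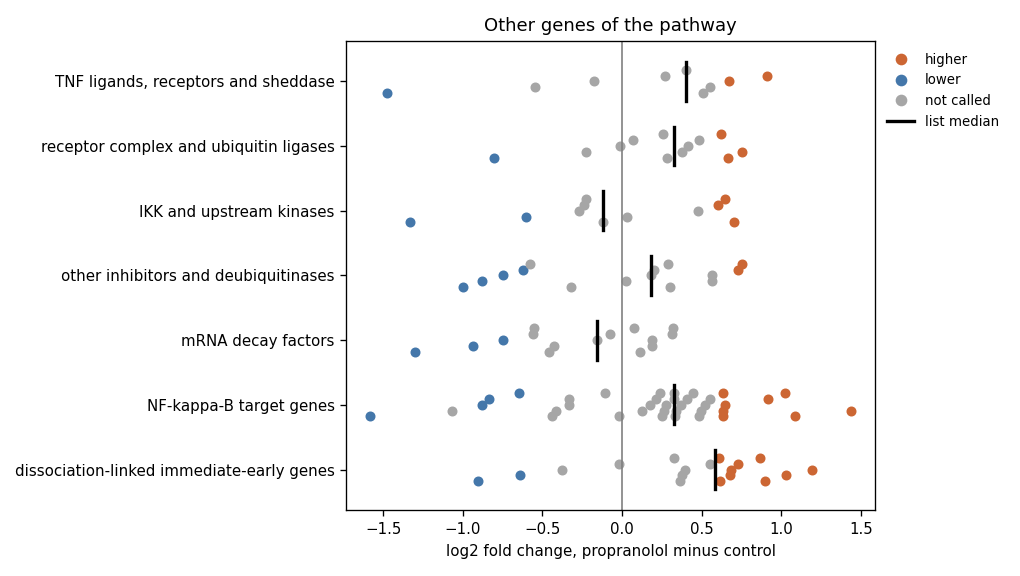
Log2 fold change (propranolol minus control) of each tested gene in the lists of the pathway and in the list of immediate-early genes, with a point for each gene, coloured by its call, and a bar at the median of each list. Medians run from -0.16 for the mRNA decay factors to 0.58 for the immediate-early genes, and each list holds genes called lower, while with the GC correction these medians were 0.12 and 0.29 and 3 of the 6 pathway lists held none.

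Several of the 10 genes are known to respond within minutes when tissue is digested into single cells, and a list of 18 immediate-early and heat shock genes linked to this handling was therefore followed as well. Of these, 9 were higher and 2 lower after propranolol (median 0.58), and 3 and 1 after the GC correction (median 0.29). Of all tested genes, 12.2% were higher and 15.6% lower, and 7.64% and 4.99% after the correction. The 1 lower gene of 18 was then near the share in the whole table. The summed level of the 18 genes was 5079 and 5873 CPM in the control libraries and 7499 and 9035 CPM in the propranolol libraries. Hspa1b was the most abundant, with 622 and 761 against 1341 and 1820.0 CPM. Hspa8 rose from 828 ± 18.5 to 1331 ± 42.4 CPM, Jun from 541 ± 114 to 826 ± 93.3 CPM, Dusp1 from 359.7 ± 49.0 to 596 ± 128 CPM, Hspa1a from 340.5 ± 67.4 to 694 ± 134 CPM and Egr1 from 83.5 ± 3.68 to 134 ± 28.8 CPM. Nr4a1 (log2 fold change 0.90), Ier2 (0.87) and Egr2 (0.61) rose too, while Klf6 (-0.64) and Jund (-0.90) fell. After the GC correction, Hspa1a, Hspa1b, Hspa8 and Jund were still called, and the other 7 were not, with values from -0.033 (Klf6) to 0.56 (Ier2 and Nr4a1). Without propranolol replicate 2, Jun (0.52), Dusp1 (0.52) and Egr1 (0.47) were under 1.5-fold, as were Jun (0.47) and Egr2 (0.56) without control replicate 1 and Egr2 (0.55) without propranolol replicate 1. Fos had 0.40 (edgeR adjusted p = 0.0205) and Junb 0.33 (adjusted p = 0.0232), both under 1.5-fold (Junb is also in the target list), and Atf3 had -0.017 (adjusted p = 0.927). The summed level of these genes was higher in the same libraries in which Nfkbia was higher, and their part in that result was not tested.

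The markers of other cell types that make or answer TNF also differed between the groups. Their counts stand beside 12.2% of all tested genes that were called higher and 15.6% that were called lower. Of 10 T cell markers, 9 were lower, and Cd8a, the most abundant, had 71.0 and 86.8 CPM in control and 29.4 and 13.4 CPM in propranolol libraries. All 9 NK cell markers were lower, with a summed level of 258 and 268 against 113 and 59.0 CPM and Gzmb as the most abundant (106 and 104 against 52.9 and 26.7 CPM). Of 8 tested neutrophil markers, 5 were higher and 0 lower, with a summed level of 182 and 199 against 357 and 383 CPM. Csf3r was the most abundant of them (97.0 and 129.5 against 154 and 179.7 CPM), and Ly6g, Camp, Ngp and Elane were too low for a test. Of 12 macrophage markers, 2 were higher (Csf1r and Cd14) and 1 lower (Ptprc), with a summed level of 20740.3 and 19849 against 25622 and 23369.6 CPM and Lyz2 as the most abundant (5889 and 5226 against 7569 and 5961 CPM).

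Of 8 dendritic cell markers, 4 were lower, with a summed level of 92.0 and 72.8 against 53.5 and 47.4 CPM and Fscn1 as the most abundant (50.4 and 33.6 against 27.0 and 26.3 CPM). Of 10 markers of fibroblasts and fibrosarcoma cells, 7 were lower and Fn1, which macrophages also make, was higher, with a summed level of 5607 and 3330 against 4985 and 4452 CPM. Fn1 alone had 2284 and 2062 against 4265 and 3699.8 CPM, and without it the sum of the other 9 markers was 3323 and 1268 against 719.7 and 752 CPM. B cell markers had 1 of 4 tested genes higher and 1 lower, endothelial markers 1 of 5 higher, and the 2 tested mast cell and basophil markers were lower, with Mcpt8, Ms4a2 and Fcer1a at 0 in every library. The summed B cell, endothelial and mast cell levels were at most 199, 63.0 and 11.1 CPM. With the GC correction, 9 T cell, 8 NK cell, 2 dendritic cell and 2 mast cell and basophil markers were lower. Neutrophil markers then had 6 higher and 0 lower, and fibroblast and fibrosarcoma markers 1 higher and 6 lower. Of the macrophage markers, 1 was higher and 0 lower, and 0 B cell and 0 endothelial markers were called. Over all tested genes, 7.64% were then higher and 4.99% lower. The part of these cell types in the levels of the 10 genes was not tested.

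**Figure D5:**
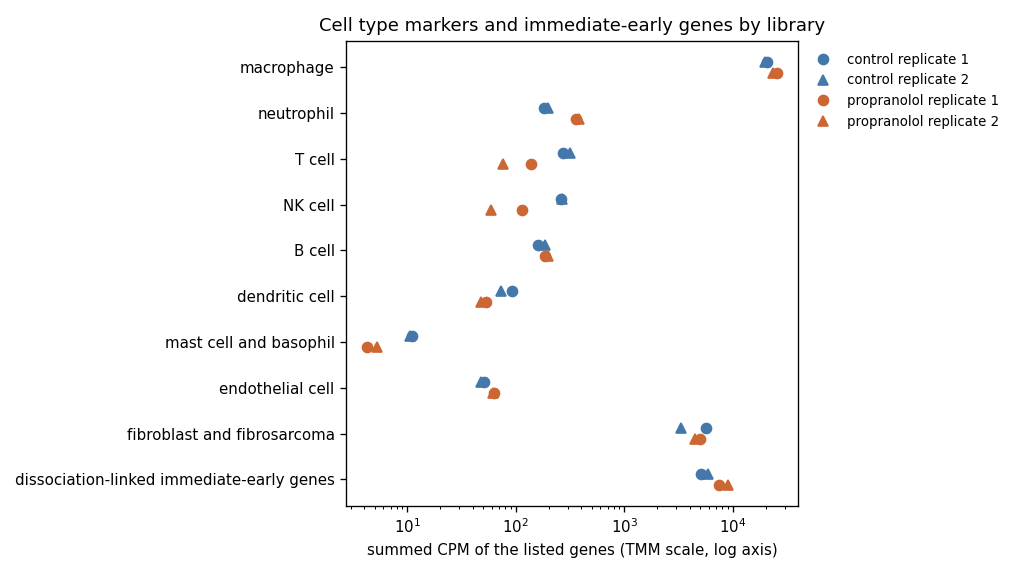
Summed CPM (TMM scale, log axis) of the markers of each cell type and of the immediate-early genes in the 4 libraries, with circles for replicate 1 and triangles for replicate 2. The T cell and NK cell sums are lower and the neutrophil and immediate-early sums higher in both propranolol libraries than in both control libraries.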

How the data were processed

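Poly-adenylated RNA of sorted TAMs was sequenced in 4 libraries. The authors aligned reads to mm10 (STAR 2.7.1a, per the labels), kept alignments with a MAPQ above 30 (SAMtools 1.9), counted exons of GENCODE genes with featureCounts 1.6.4 for paired reads and deposited the raw counts, whole numbers without normalization. The labels also list DESeq2 1.39.0. The annotation release and a strand option are not given in the sources used here. Identifiers without their version matched GENCODE M21 for 54079 genes and not for 67.

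Counts were analysed in R 4.3.3 with edgeR 4.0.16 (TMM, filterByExpr with a minimum count of 10, quasi-likelihood test, no covariates, Benjamini-Hochberg adjustment). Standard errors came from the coefficient and the F statistic. The members and lists were chosen with earlier results of these data known. Named were all 10 genes, of each pathway list up to 6 called genes of highest mean CPM, and a fixed set of ligands, receptors, kinases, inhibitors, decay factors and targets; the other called genes of the target and immediate-early lists are named to complete their counts. Sequences are from RefSeq (GRCm38.p6) and GENCODE M21 (GRCm38).

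The alternatives were DESeq2 1.42.0, its size factors in edgeR, upper-quartile factors, limma-voom (limma 3.58.1), other filters (none, or a CPM of at least 1), each library left out, the replicate block, other fold thresholds and a GC correction, in which the deviation of a library's log2 CPM along GC content, fitted by a natural spline with 5 degrees of freedom, entered as an offset. The edgeR, DESeq2 and limma-voom fits and the GC correction were tested on simulated data, with changed genes drawn without regard to GC content. The other alternatives were not tested in this way. Replicates differed by more than sampling noise (chi-square per degree of freedom 7.56 in control, 9.83 in propranolol).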

Additional observations from a re-analysis of the deposited data

How the results depend on the processing

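Nfkbia kept its direction under all 15 alternatives, as did Tnfaip3, Nfkb1, Nfkb2, Rel, Rela and Relb. The other fold thresholds are among the 15 and reuse the main fit, so they can change a call but not a direction. Counts of called genes moved most with the fold threshold and the GC correction. For the cause of each move only the construction of the setting is known; otherwise the cause was not tested. Over all tested genes, 1122 were higher and 733 lower with the GC correction, 1181 and 947 with this correction and the replicate block together, 3205 higher without a fold threshold, and 61 and 667 beyond a log2 fold change of 1.5. Of the 10 genes, 3 were higher without control replicate 2, 2 with either GC correction, 4 without a fold threshold and 0 beyond a log2 fold change of 1.5, and 0 were lower with no filter, without control replicate 2, without propranolol replicate 1, with either GC correction and beyond 1.5. Of the other pathway genes, 4 were lower with either GC correction, 38 higher without a fold threshold, and 0 higher and 1 lower beyond 1.5.

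Leaving out each library in turn gave 1837 to 2119 genes higher and 1664 to 2305 lower over all tested genes, 1 to 3 higher and 0 to 1 lower of the 10, and 17 to 22 higher and 14 to 19 lower of the other pathway genes. The log2 fold changes then ranged from -0.21 to 0.42 for Tnf, 0.91 to 1.02 for Nfkbia, -0.20 to 0.59 for Nfkbiz, 0.23 to 0.53 for Tnfaip3, 0.22 to 0.39 for Nfkb1, 0.36 to 0.41 for Nfkb2, -0.72 to -0.46 for Rel, 0.49 to 0.53 for Rela, 0.33 to 0.60 for Relb and 0.14 to 0.31 for Zfp36. The lone library of a group was then assumed to vary like the other group.

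Among the 10 genes, the signs that changed were those of Tnf, Nfkbiz and Zfp36, which were not called. Tnf had -0.042 with upper-quartile factors, -0.0033 with the stricter filter, -0.21 without control replicate 1, -0.031 without propranolol replicate 1, -0.13 with the GC correction and -0.092 with this correction and the block. Nfkbiz had -0.20 without control replicate 1 and -0.11 without propranolol replicate 2, and Zfp36 -0.054 with the GC correction and -0.053 with the block added. Among called genes of the pathway lists, Chuk (0.12), Tnip3 (0.28), Cd69 (0.50), Cnot7 (0.15) and Vcam1 (0.0195), all called lower, had the opposite sign with the GC correction and did not pass. Among the 10 genes, called changes that came or went were Nfkbia (0.93) and Rel (-0.64) beyond 1.5, Nfkbiz (0.59) and Relb (0.60) without control replicate 2, Rel without control replicate 2 (-0.46), without propranolol replicate 1 (-0.52), with no filter (-0.56), with the GC correction (-0.033) and with this correction and the block (-0.023), Nfkb1 with the GC correction (0.65) and with the block added (0.66), and, without a fold threshold, Nfkb2 (0.37), Rela (0.49) and Relb (0.42).

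Upper-quartile factors also put Rbck1 (0.56), Ikbke (0.54), Jun (0.55) and Egr2 (0.55) under 1.5-fold and called 5 mRNA decay factors lower (Rc3h1, -0.61, and Hnrnpd, -0.62, added). With no filter, 4 other inhibitors were higher (Nfkbib, 0.64, and Bcl3, 0.64, added). Tnfrsf1a (0.63), Tnfsf9 (0.59), Myc (0.62) and Klf4 (0.62) were then called higher too. The lower calls of Chuk (-0.53), Otud7b (-0.55), Cd83 (-0.57) and Klf6 (-0.57) were lost under this setting.

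Libraries of the same number in the groups shared deviations with a correlation of 0.17 across genes, over 2 pairs, which leaves undecided whether the numbers pair the libraries. The replicate block gave Nfkbia 0.94 and Rel -0.63 and changed no call among the 10 genes, although 7 in place of 4 were higher by adjusted p alone, as with no filter and without control replicate 2. Counts by adjusted p alone in other fits and the fibroblast sum without Fn1 were chosen after seeing the data. With 2 libraries a group the spread is poorly known, and for Tnf and Nfkbiz the control libraries themselves differed 1.59-fold and 1.77-fold.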
